A study of Mus musculus with 12 samples.

Results

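The members described here are 8 genes for neurotrophic factors and their receptors, Bdnf, Ntf3, Gdnf, Ntrk2, Ntrk3, Gfra1, Gfra2 and Ret, chosen by gene name from the 57132 features of a table of RNA sequencing counts. All 8 were in the table. The libraries were made from the striatum of 10-month-old C57Bl/6 mice, 6 labelled TAAR5-KO (knockout of trace amine-associated receptor 5) and 6 labelled TAAR5-WT (wild-type littermates), of both sexes, with no treatment named. The tissue was a coronal slice in front of Bregma from which the cortex had been cut away. The libraries carry the names NK1 to NK6 (labelled TAAR5-KO) and NK7 to NK12 (labelled TAAR5-WT), and no name is tied to an animal number or a sex. The comparison asks whether neurotrophic factors or their receptors differ in the striatum between the genotypes. The targeted gene, Taar5, had 2, 3, 2, 1, 2 and 6 counts in NK1 to NK6 and 0, 1, 0, 0, 2 and 0 counts in NK7 to NK12. Its counts thus go against the labels, at or below the floor of 3 counts everywhere except in NK6, and the libraries are named by their labels throughout.

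Neurotrophic factors are secreted proteins that neurons need for survival, growth of processes and plasticity of synapses. In the neurotrophin family, brain-derived neurotrophic factor (Bdnf) acts mainly on the receptor tyrosine kinase TrkB (Ntrk2) and neurotrophin 3 (Ntf3) on TrkC (Ntrk3). In the GDNF family, glial cell line-derived neurotrophic factor (Gdnf) binds the membrane-anchored co-receptor GFRα1 (Gfra1), neurturin binds mainly GFRα2 (Gfra2), and both complexes signal through the receptor tyrosine kinase Ret. The striatum is known to receive much of its BDNF protein from cortical neurons that project to it, and GDNF made in the striatum is known to support the dopamine neurons of the midbrain, which express Ret.

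The RefSeq promoter windows reach from 250 bases before to 50 bases after an annotated start. The RefSeq table (GRCm38.p6) holds 13 windows for 5 of the 8 members, among them 7 for Bdnf, 1 for Gfra1 and 1 for Ntrk2. Each of the 13 had 1 exact match in GRCm39, the build of the counts, and positions are given there. The windows were searched for the half-site of the cyclic AMP response element, TGACG, on both strands (CGTCA on the other), the letters to which the activity-dependent factor CREB is known to bind. A half-site was in 20.8% of all 32851 windows of the table, in 1 of the 7 windows of Bdnf, in 1 of the 2 windows of Gdnf and in no window of Ntf3, Ntrk2 or Gfra1. The complete palindromic element was in 1.79% of all windows and in none of the 13. The windows of Bdnf and Ntrk2 are shown because, among the 6 members that were tested, these genes varied most and least between libraries. The window of Bdnf is the 1 that holds the half-site (chr2:109522531-109522830 of GRCm39, plus strand), with the half-site in capitals, and the window of Ntrk2 is its only 1 (chr13:58954133-58954432, plus strand). In both, 50 of the 300 bases lie in exons on which reads were counted.
Bdnf: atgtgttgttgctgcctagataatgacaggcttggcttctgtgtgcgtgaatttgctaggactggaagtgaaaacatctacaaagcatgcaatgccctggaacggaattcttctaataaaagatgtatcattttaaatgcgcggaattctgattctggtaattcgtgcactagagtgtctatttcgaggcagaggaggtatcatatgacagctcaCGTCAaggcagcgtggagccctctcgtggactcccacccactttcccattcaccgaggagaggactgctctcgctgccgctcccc
Ntrk2: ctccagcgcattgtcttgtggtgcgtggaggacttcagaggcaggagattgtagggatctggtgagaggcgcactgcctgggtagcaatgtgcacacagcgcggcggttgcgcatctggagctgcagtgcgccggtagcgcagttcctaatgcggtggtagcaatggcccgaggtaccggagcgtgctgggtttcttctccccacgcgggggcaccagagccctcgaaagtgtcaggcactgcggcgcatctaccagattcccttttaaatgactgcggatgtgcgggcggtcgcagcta

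The libraries held 11269915 to 34824450 counts in all, of which ribosomal RNA took 64.3% to 88.1%, so that 1819907 to 6399188 counts remained for all other genes. CPM is the count of a gene per 1000000 counts of its library, the library size being scaled by the trimmed mean of M-values (TMM), and the floor of 3 counts stood at 0.0678 to 0.361 CPM. Without TMM, on plain library sizes, the features tested had a median log2 fold change of -0.49 in place of -0.01, so that every difference is relative to the TMM scale. The striatal identity of the tissue was checked with 9 markers of spiny neurons, the projection neurons of the striatum, whose CPM summed to 333 to 431 in libraries labelled TAAR5-KO and 195 to 369 in those labelled TAAR5-WT, with the lowest value in NK11. In libraries of bulk tissue, fewer cells of a type and less RNA per cell cannot be told apart.

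Per length, Ntrk2 was the most abundant of the 8 genes, with 5.23 ± 0.259 CPM per kb of merged exons with the label TAAR5-KO against 5.61 ± 0.343 with the label TAAR5-WT (SD, n = 6 each). Its mean over the 12 libraries, 5.42 CPM per kb, stood at the percentile 95.2 of the 13902 features tested. Gfra2 (1.61 CPM per kb), Gfra1 (1.59) and Ntrk3 (1.32) followed as means over the 12 libraries, at percentiles from 74.2 to 78.5. By CPM without division by length, the percentiles were 69.8 for Gfra2, 78.9 for Gfra1 and 96.8 for Ntrk3. The place of Ntrk3 thus depends on its 30170 counted bases, the most of the 8 genes. Bdnf came next with 0.287 CPM per kb, at the percentile 30.7. Ret (0.135 CPM per kb), Ntf3 (0.120) and Gdnf (0.0555) were lowest. Receptors were thus above their ligands in level, Ntrk2 above Bdnf, Ntrk3 above Ntf3 and Gfra1 above Gdnf, whereas Ret was low beside both co-receptors with which it signals. Only 2 steps of this order held in each of the 12 libraries, that from Ntrk2 to Gfra2 and that from Ntrk3 to Bdnf. Gfra2 was above Gfra1 in 5 of 12 libraries, Gfra1 above Ntrk3 in 10, Bdnf above Ret in 10, Ret above Ntf3 in 8 and Ntf3 above Gdnf in 9, so these neighbours did not part beyond their spread.

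**Figure D1:**
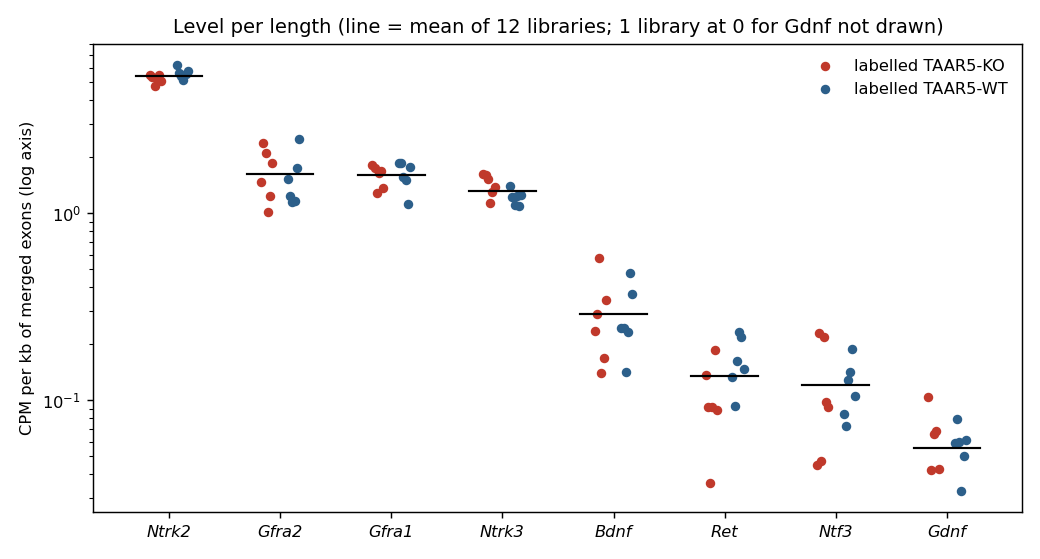
CPM per kb of merged exons (log axis) of the 8 genes in each library, red for libraries labelled TAAR5-KO and blue for those labelled TAAR5-WT, with a line at the mean of 12 libraries. Ntrk2 lies above the rest at 5.42, 3 receptor genes lie between 1.32 and 1.61, and the 3 ligand genes and Ret lie at or below 0.287.

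The merged exons behind these levels hold much sequence that is not coding, to a different extent in each gene. Of the 30170 bases counted for Ntrk3 (ENSMUSG00000059146.13, chr7:77825707-78387760, minus strand), 9.69% are coding in GENCODE M39, and of the 19292 bases of Ntrk2 (ENSMUSG00000055254.16, chr13:58954383-59281784, plus strand) 13.8% are. Both genes are known to make full-length receptors and truncated forms without the kinase, the latter prominent in astrocytes for Ntrk2, and a count per gene adds up all of them. Bdnf (ENSMUSG00000048482.15, chr2:109505045-109557352) had 14.0% of its 6217 bases in coding sequence, and Gfra1 (ENSMUSG00000025089.16, chr19:58224036-58444341) 26.7% of 5476. For Gfra2 (ENSMUSG00000022103.11, chr14:71127560-71217278) the share was 51.1% of 3539 bases, and for Ret (ENSMUSG00000030110.14, chr6:118128706-118174679) 49.9% of 6763. Ntf3 (ENSMUSG00000049107.14, chr6:126078375-126143873) and Gdnf (ENSMUSG00000022144.5, chr15:7840327-7867056) had 1714 and 3674 counted bases, of which 47.4% and 19.6% are coding. All except Gdnf and Ret share part of their span with another annotated gene, and the strand setting of the counting is not given in the sources used here.

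None of the genes passed the test between the genotype labels. Of the 8 members, 6 passed the filter of at least 0.5 CPM on total counts in at least 3 libraries, and Ntf3 and Gdnf did not. In a separate setting with the ribosomal RNA features removed, all 8 passed, and 0 of the 8 were called, against 173 of 20743 features. The likelihood ratio test of edgeR called 0 of the 6 at a Benjamini–Hochberg adjusted p under 0.1, against 1.65% of the 13902 features tested. The quasi-likelihood test of edgeR called 0 of the 6 as well, against 0.453% of all features. DESeq2, which gave no adjusted p for Bdnf and Ret, called 0 of the other 4, against 177 calls among the 13902 features. At an unadjusted p under 0.05 there was 1 member, Ntrk3, or 16.7% of 6 against 11.9% of all features. The median log2 fold change of the 6 was -0.02, against -0.01 for all features tested.

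**Figure D2:**
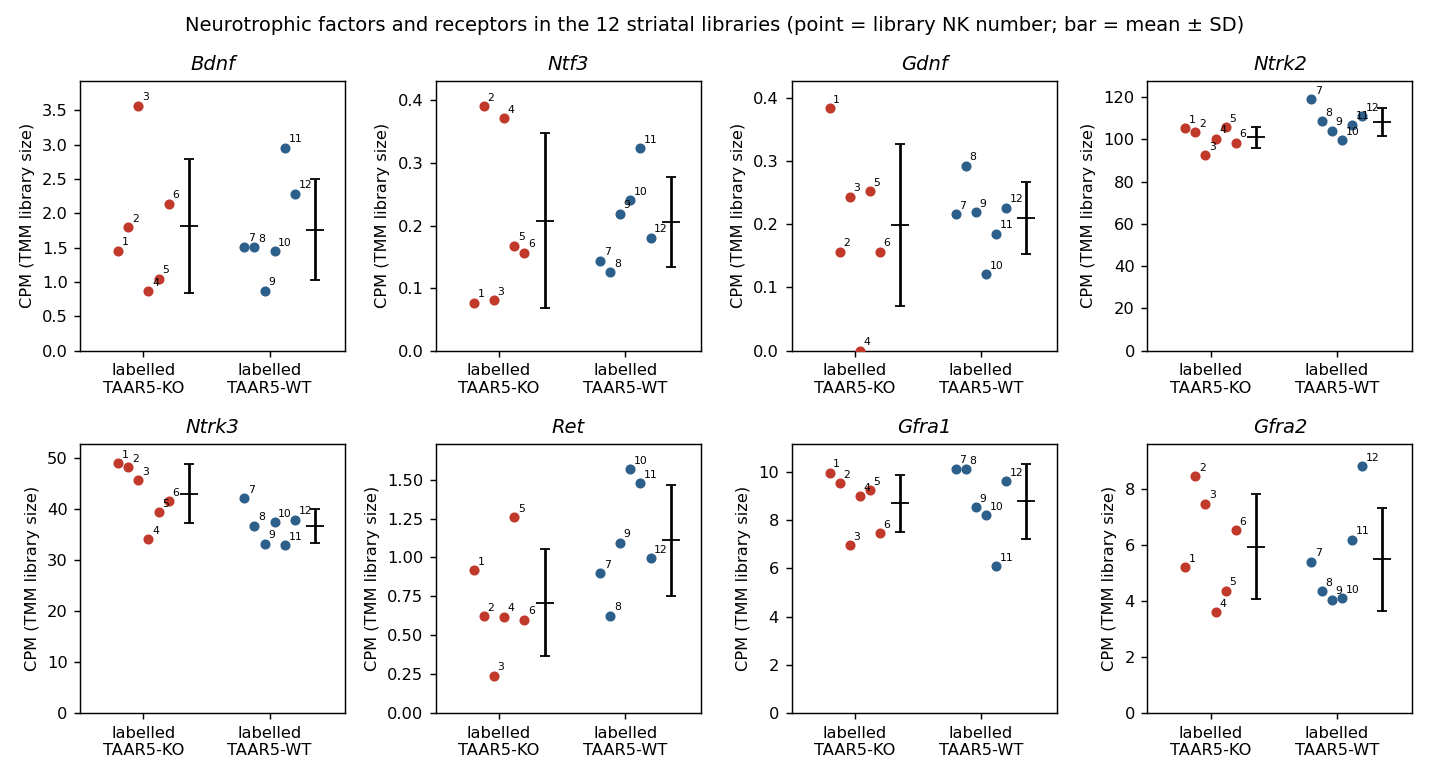
CPM (on TMM library sizes) of each of the 8 genes in the 12 libraries, with the NK number beside each point and the mean ± SD of 6 libraries beside each group. The groups overlap for each gene, and the means with the labels TAAR5-KO and TAAR5-WT are 42.9 and 36.6 CPM for Ntrk3 and 0.711 and 1.11 CPM for Ret.

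Among the ligands, Bdnf was the only one above the count floor in every library, with 8 to 101 counts. In libraries labelled TAAR5-KO, it ran from 0.867 CPM in NK4 to 3.57 CPM in NK3, with a median of 1.63. In those labelled TAAR5-WT, it ran from 0.875 CPM in NK9 to 2.95 CPM in NK11, with a median of 1.51. The groups overlapped almost completely, and the differences within each label were far wider than that between them. The means were 1.81 ± 0.978 CPM and 1.76 ± 0.736 CPM (SD, n = 6 each). The likelihood ratio test gave a log2 fold change of -0.02 with an SE of 0.31 and an adjusted p of 0.9898. The 95% interval from -0.62 to 0.59 leaves room for a fold from 0.649 to 1.504. The biological variation of Bdnf, estimated by edgeR at a coefficient of 32.5%, exceeded that of 96.0% of the features tested.

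Ntf3 and Gdnf lay around the count floor. Ntf3 had 1 to 8 counts per library and was at or below 3 counts in 5 of the 12, 2 of them labelled TAAR5-KO and 3 labelled TAAR5-WT. Gdnf had 0 to 10 counts and was at or below 3 counts in 5 libraries as well, 3 labelled TAAR5-KO and 2 labelled TAAR5-WT. In NK4, no count of Gdnf was found, which allows up to 0.186 CPM. Over 6 libraries, Ntf3 summed to 23 counts with the label TAAR5-KO and 26 with the label TAAR5-WT, and Gdnf to 22 and 30. Without the filter, the log2 fold change was 0.01 for Ntf3 (SE 0.46, 95% interval -0.90 to 0.91) and -0.24 for Gdnf (SE 0.44, 95% interval -1.11 to 0.62), with adjusted p of 0.996 and 0.843 from the same test. At this depth, the intervals leave room for a difference in either direction for either ligand.

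**Figure D3:**
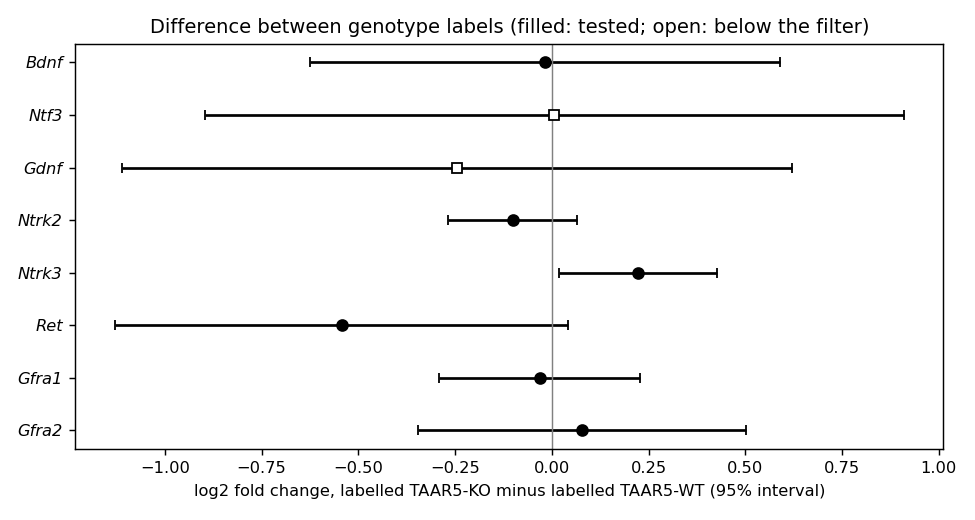
Log2 fold change of libraries labelled TAAR5-KO against those labelled TAAR5-WT for the 8 genes, with bars for the 95% interval and open squares for both ligands below the filter. The intervals are narrowest for Ntrk2 (-0.27 to 0.06) and widest for Ntf3 (-0.90 to 0.91), and Ntrk3 alone has an interval above 0 before adjustment.

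Of the neurotrophin receptors, Ntrk2 varied least between libraries, with a coefficient of variation of 6.45% over the 12. It ran from 92.5 CPM in NK3 to 106 CPM in NK5 with a median of 102 in libraries labelled TAAR5-KO, and from 99.6 CPM in NK10 to 119 CPM in NK7 with a median of 108 in those labelled TAAR5-WT. In 4 of the 6 libraries labelled TAAR5-WT it was above all labelled TAAR5-KO, while 2 labelled TAAR5-KO were below all labelled TAAR5-WT. The means of 101 ± 5.00 CPM and 108 ± 6.62 CPM (SD, n = 6 each) differed by -0.10 on the log2 scale with an SE of 0.08. The adjusted p of the edgeR likelihood ratio test was 0.687, and the 95% interval of the fold was 0.831 to 1.046.

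Ntrk3 lay on the other side. In libraries labelled TAAR5-KO it ran from 34.0 CPM in NK4 to 48.9 CPM in NK1, with a median of 43.5, and in those labelled TAAR5-WT from 32.9 CPM in NK11 to 42.1 CPM in NK7, with a median of 37.0. The 3 libraries above all labelled TAAR5-WT were NK1, NK2 and NK3, and NK9 and NK11 were below all labelled TAAR5-KO. The means were 42.9 ± 5.75 CPM and 36.6 ± 3.40 CPM (SD, n = 6 each). On the log2 scale this was 0.22 with an SE of 0.10 and an adjusted p of 0.361 by the edgeR likelihood ratio test. With the trend of fold change over gene length removed, it was 0.10 (edgeR adjusted p = 0.758), and that of Ntrk2 was -0.18 (edgeR adjusted p = 0.375). On plain library sizes, where the median of all features was -0.49, Ntrk3 stood at -0.37. Without NK1, NK2 and NK3, its 3 highest libraries and so an omission that had to lower it, the value was 0.06. The 95% interval of the fold was 1.01 to 1.34, and after adjustment over all features the difference was not past the threshold, with an adjusted p from 0.119 to 0.626 when 1 library was left out and from 0.135 to 0.970 in the other settings. Ntrk3 is also in a module of co-expressed genes that the study chose on these libraries, so that its direction has no independent source there.

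A ratio of 2 genes within a library does not depend on the scaling between libraries. The ratio of Ntrk2 to Ntrk3, as counts per kb, took the values 3.36, 3.36, 3.17, 4.61, 4.21 and 3.71 from NK1 to NK6, labelled TAAR5-KO. From NK7 to NK12, labelled TAAR5-WT, it took the values 4.43, 4.63, 4.90, 4.17, 5.08 and 4.58. In 4 libraries labelled TAAR5-KO the ratio was below all labelled TAAR5-WT, whereas NK4 and NK5 lay among them. On the log2 scale, the mean was 1.89 ± 0.21 with the label TAAR5-KO and 2.21 ± 0.10 with the label TAAR5-WT (SD, n = 6 each), a difference of -0.32 (two-sided exact permutation test, p = 0.0173, adjusted p = 0.0519 over 3 ratios). This is under the 0.1 used for genes and over 0.05. With any 1 library left out, the adjusted exact permutation p stayed between 0.0130 and 0.0974. Without NK1, NK2 and NK3, an omission chosen after the data were seen, the difference was -0.15 (exact permutation, adjusted p = 0.429), and since their ratios are the 3 lowest, a smaller difference was bound to follow. These 3 libraries had ribosomal RNA shares of 86.6%, 87.1% and 88.1%, which NK9, labelled TAAR5-WT, shared with 87.4%, and the lowest summed levels of 6 astrocyte markers, 210, 184 and 184 CPM. The part of either in the ratio was not tested.

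**Figure D4:**
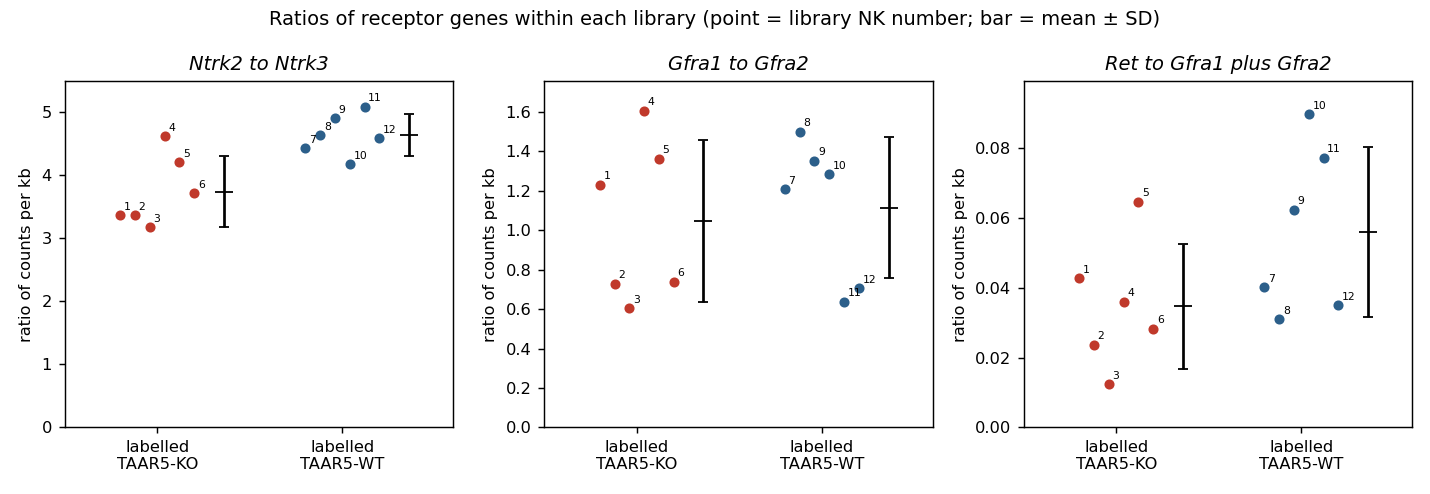
Ratios of counts per kb within each library for Ntrk2 to Ntrk3, Gfra1 to Gfra2 and Ret to Gfra1 plus Gfra2, with the NK number beside each point and the mean ± SD of 6 libraries. The ratio of Ntrk2 to Ntrk3 averages 3.74 with the label TAAR5-KO and 4.63 with the label TAAR5-WT, and NK1, NK2 and NK3 are its lowest points.

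Neither GDNF family co-receptor passed the test between the labels. Gfra1 ran from 6.97 CPM in NK3 to 9.95 CPM in NK1 in libraries labelled TAAR5-KO (median 9.11) and from 6.09 CPM in NK11 to 10.1 CPM in NK7 in those labelled TAAR5-WT (median 9.07). The likelihood ratio test of edgeR gave -0.03 on the log2 scale with an SE of 0.13 and an adjusted p of 0.957, and a 95% interval of the fold from 0.818 to 1.17. Gfra2 ran from 3.59 CPM in NK4 to 8.43 CPM in NK2 with the label TAAR5-KO (median 5.86) and from 4.05 CPM in NK9 to 8.79 CPM in NK12 with the label TAAR5-WT (median 4.87). The same test gave 0.08 with an SE of 0.22 and an adjusted p of 0.936, and the 95% interval of the fold, 0.787 to 1.42, was wider than for Gfra1. The labels overlapped for both genes.

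The balance of both co-receptors differed more between single libraries than between labels. The ratio of Gfra1 to Gfra2, as counts per kb, was 0.604 in NK3, 0.637 in NK11, 0.706 in NK12, 0.730 in NK2 and 0.739 in NK6. In the other 7 libraries it ran from 1.21 in NK7 to 1.61 in NK4. Both labels thus hold libraries in which either co-receptor prevails. The difference between the labels was -0.11 on the log2 scale (two-sided exact permutation test, p = 0.801, adjusted p = 0.801).

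Ret, the signalling receptor of the family, had 3 to 44 counts per library and was at the floor in NK3. It ran from 0.243 CPM in NK3 to 1.26 CPM in NK5 with the label TAAR5-KO (median 0.622) and from 0.626 CPM in NK8 to 1.57 CPM in NK10 with the label TAAR5-WT (median 1.04). NK2, NK3, NK4 and NK6 were below all libraries labelled TAAR5-WT, NK2 and NK4 only just, and NK10 and NK11 were above all labelled TAAR5-KO. The means of 0.711 ± 0.344 CPM and 1.11 ± 0.356 CPM (SD, n = 6 each) differed by -0.54 on the log2 scale with an SE of 0.30. The edgeR likelihood ratio test gave an adjusted p of 0.467. The 95% interval of the fold, 0.457 to 1.03, includes no difference. Set against its co-receptors, the ratio of Ret to Gfra1 plus Gfra2 was 0.0346 on average with the label TAAR5-KO and 0.0559 with the label TAAR5-WT, a log2 difference of -0.75 (two-sided exact permutation test, p = 0.102, adjusted p = 0.153).

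The largest differences in Bdnf and Gfra2 ran between libraries, in step with markers of cortical pyramidal neurons. The relation was noticed in the data, and 18 relations were computed, those of the 6 tested members with 3 marker lists (cortical pyramidal neurons, astrocytes and spiny neurons). The CPM of 5 cortical pyramidal neuron markers summed to 23.0 in NK4, the lowest library, and 96.4 in NK12, the highest. On log2 scales over the 12 libraries, Bdnf followed this sum with Pearson's r = 0.90 (permutation test, p = 4e-05, adjusted p = 3.6e-04) and Spearman's rho = 0.95 (permutation p = 1e-05, the smallest that 100000 permutations can give, adjusted p = 1.8e-04). For Gfra2, r was 0.93 (permutation p = 2e-05, adjusted p = 3.6e-04) and rho was 0.95 (permutation p = 2e-05, adjusted p = 1.8e-04). Both relations held within each label, with r = 0.92 and 0.88 for Bdnf and r = 0.97 and 0.93 for Gfra2 in libraries labelled TAAR5-KO and TAAR5-WT. Without NK4 and NK9, both farthest from the median of the marker sum, r was 0.84 for Bdnf and 0.92 for Gfra2. The points share the scaling of their library. Gfra1 did not follow the markers (r = -0.27, permutation p = 0.398, rho = -0.08), nor did Ntrk2 (r = 0.07, permutation p = 0.837, rho = 0.10), and adjusted p for Gfra1 and Ntrk2 were 0.478 and 0.886.

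**Figure D5:**
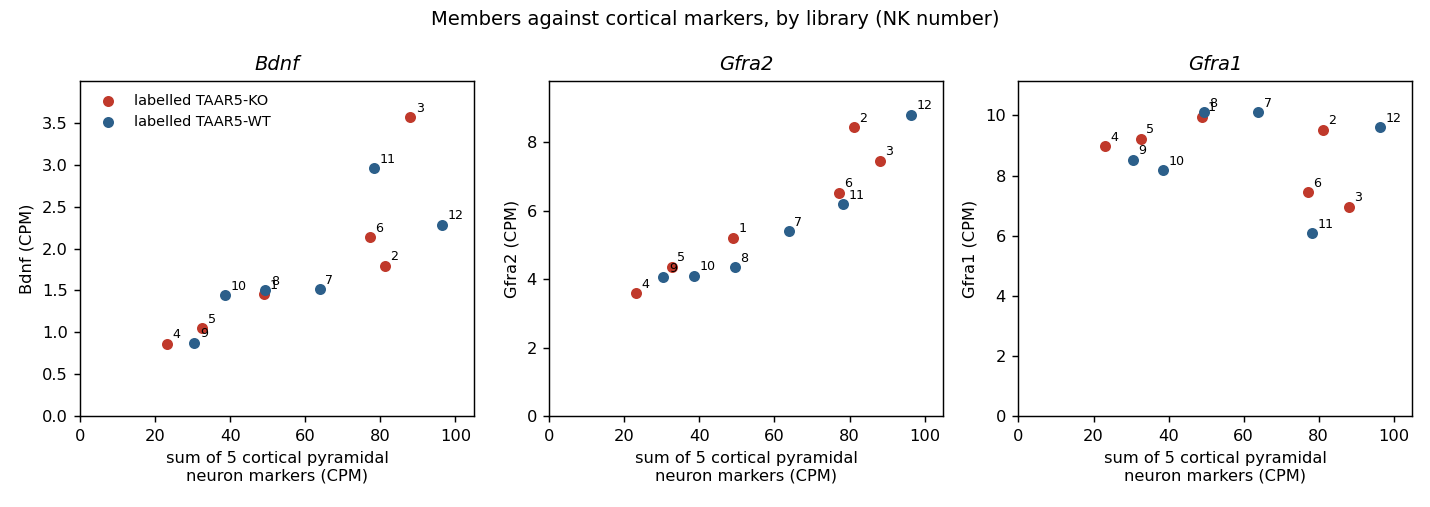
CPM of Bdnf, Gfra2 and Gfra1 against the summed CPM of 5 cortical pyramidal neuron markers in the 12 libraries, red for those labelled TAAR5-KO and blue for those labelled TAAR5-WT, with NK numbers. Bdnf and Gfra2 climb with the markers in both labels, from NK4 at 23.0 to NK3, NK2 and NK12 between 81.2 and 96.4, and Gfra1 does not.

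Among all 13902 features tested, 0.683% had a correlation with the cortical markers as high as that of Bdnf, and 0.259% as high as that of Gfra2. The 5 libraries with the highest cortical sums, NK6, NK11, NK2, NK3 and NK12 from 77.2 to 96.4 CPM, are the 5 in which Gfra2 exceeded Gfra1 per kb. As Bdnf and Gfra2 both followed the same cortical sum closely, a positive correlation between them was bound to follow. Its p is therefore no separate support (r = 0.79, permutation p = 0.00238, adjusted p = 0.0357 over 15 pairs of members, rho = 0.87, permutation p = 3.5e-04, adjusted p = 0.00525). Without NK3 and NK11, r was 0.84. No other pair of the 6 tested members had an adjusted p under 0.1. With the cortical level as a covariate beside genotype, a fit chosen after the data were seen, the SE of the log2 fold change fell from 0.31 to 0.20 for Bdnf and from 0.22 to 0.11 for Gfra2, and the estimates were 0.07 and 0.14 (edgeR adjusted p = 0.912 and 0.609). The cortical sum itself did not separate the labels, with a median of 63.1 CPM and a range of 23.0 to 88.0 against a median of 56.6 and a range of 30.4 to 96.4. The part of cortical neurons in the levels of Bdnf and Gfra2 was not tested.

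Astrocyte markers moved with the labels. The sum of 6 such markers was 184 to 244 CPM in libraries labelled TAAR5-KO and 246 to 289 CPM in those labelled TAAR5-WT, without overlap, and 1 of the 6, Gja1 (the gap junction protein connexin 43), was called lower. The part of astrocytes in the levels of the members was not tested. Of all features tested, 1.01% did not overlap between the labels. Over the 12 libraries, Ntrk2 went up with this sum (r = 0.68, permutation p = 0.0156, adjusted p = 0.0665, rho = 0.75) and Ntrk3 went down (r = -0.73, permutation p = 0.00787, adjusted p = 0.0472, rho = -0.62). Spearman's rho had adjusted permutation p of 0.0438 for Ntrk2 and 0.133 for Ntrk3. The permutations took no account of the labels, which this sum separates. The p of relations with this sum thus cannot tell a relation between libraries from the difference between labels. Among libraries labelled TAAR5-KO, r was 0.40 for Ntrk2 and -0.78 for Ntrk3. Among those labelled TAAR5-WT, it was 0.68 for Ntrk2 and 0.17 for Ntrk3, so that of Ntrk3 changed its sign. No p was computed within a label. Without NK2 and NK3, r was 0.63 for Ntrk2 and -0.53 for Ntrk3. Ret gave r = 0.66 (permutation p = 0.0185, adjusted p = 0.0665, rho = 0.62), which was 0.31 without NK2 and NK3. It was 0.65 among libraries labelled TAAR5-KO and -0.07 among those labelled TAAR5-WT. No relation with the spiny neuron sum had an adjusted p under 0.1.

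For each of the 6 tested members, the tested features whose log2 CPM was most like its own over the 12 libraries were found, 3 for each member except Ntrk3, for which 2 are given. For Bdnf they were Zfp365 (r = 0.94, rho = 0.93), Oxr1 (r = 0.94, rho = 0.97) and Cck, the neuropeptide cholecystokinin (r = 0.92, rho = 0.90). For Gfra2 they were Rtn3, Clstn1 and Diras2, with r from 0.94 to 0.96. Ntrk3 was most like Nbea (r = 0.96) and Myh10 (r = 0.95), and Ntrk2 most like Adcyap1r1, Brd3 and Tmbim6 (r from 0.89 to 0.93). Nbea is in the same co-expression module of the study as Ntrk3, and Myh10 is in another. The study related both modules to the knockout genotype on these libraries, so the likeness to Ntrk3 has no independent source. Gfra1 had the loosest companions, 5430416N02Rik, Gas5 and Nckap5l, with r from 0.85 to 0.88. Those of Ret were Gpx3 (r = 0.92), Kcnip1 (r = 0.92) and Ppt1 (r = 0.89), and Gpx3, a secreted glutathione peroxidase, was itself lower with the label TAAR5-KO by -1.01 on the log2 scale (edgeR likelihood ratio test, adjusted p = 0.0873). They were picked as the highest correlations among all features tested, so no p is given.

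Around the members, 70 further genes of the same pathways were examined, 56 of which passed the filter. The edgeR likelihood ratio test called 0 of the 56, as did the quasi-likelihood test, against 1.65% and 0.453% of all features. DESeq2 called 0 of those to which it gave an adjusted p, against 177 calls among the 13902 features tested. Furin and Pcsk6 were among the genes to which it gave no adjusted p. By the likelihood ratio test, 8 (14.3%) had an unadjusted p under 0.05, against 11.9%. The 56 genes had a median log2 fold change of -0.04.

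Of 10 other ligands, only Manf, a secreted protein of the endoplasmic reticulum stress response, passed the filter. It had 3.33 ± 0.695 CPM with the label TAAR5-KO and 3.08 ± 0.593 CPM with the label TAAR5-WT (SD, n = 6 each), which is 0.12 on the log2 scale with an SE of 0.15, and 0.010 without NK4, its highest library. The ligands Ntf5 (neurotrophin 4), Nrtn (neurturin, the main ligand of GFRα2), Pspn (persephin), Gdf15 and Cntf were at or below 3 counts in all 12 libraries. Cdnf, a relative of Manf, had 3 to 8 counts.

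Of 15 other receptors and co-receptors, 13 were tested and 0 called, with a median log2 fold change of -0.05. Gfra3 and Gfral, co-receptors for artemin and Gdf15, were at or below 3 counts in all libraries. Sdc3, the heparan sulfate proteoglycan syndecan 3, which binds GDNF, came nearest to the threshold with 13.1 ± 3.13 CPM against 17.2 ± 1.72 CPM (SD, n = 6 each). The difference was -0.38 on the log2 scale with an SE of 0.13 and an adjusted p of 0.130 by the edgeR likelihood ratio test, and 5 of 6 libraries labelled TAAR5-KO were below all labelled TAAR5-WT. NK5 was the exception, and without it, which had to widen the difference, the adjusted p was 6.8e-04 at -0.52. With any other library left out it was 0.131 to 0.346. Removal of the GC trend gave -0.27 (edgeR adjusted p = 0.463), and the omission of NK1, NK2 and NK3 gave -0.20 (edgeR adjusted p = 0.8997). Il6st, the shared signalling receptor gp130 of the CNTF and LIF complexes, differed by -0.21 on the log2 scale with an SE of 0.10 and an adjusted p of 0.367.

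Of the 8 genes for cleavage of the precursor proteins, 5 were tested and 0 called. Furin, the protease that cuts proneurotrophins in the secretory pathway, differed by -0.38 on the log2 scale with an SE of 0.19 and an adjusted p of 0.420 by the edgeR likelihood ratio test. For Pcsk6, of the same protease family, these values were -0.23, 0.19 and 0.691, and the difference was -0.10 without NK1 and -0.13 with the GC trend removed.

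All 37 adaptors and signalling genes downstream of the receptors were tested and 0 were called, with a median log2 fold change of -0.03 and a range from -0.44 to 0.38. The smallest p among them belonged to the adaptor Gab2, with a log2 fold change of -0.33 (SE 0.13), and the kinase Akt1, with -0.24 (SE 0.10), both at an adjusted p of 0.263 by the edgeR likelihood ratio test. With the GC trend removed, Akt1 stood at -0.12 (edgeR adjusted p = 0.755). With the cortical level as a covariate, 3 of the 56 genes were called, against 696 of the 13902 features tested. Among the 3 were the neurotrophin receptor p75 gene Ngfr (log2 fold change -1.16, edgeR adjusted p = 0.0229) and Sdc3 (-0.40, edgeR adjusted p = 0.0382). Both were named here after their values were seen.

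Of the remaining cell type markers, Slc6a3, the dopamine transporter and defining marker of dopamine neurons, was at or below 3 counts in all libraries. The summed CPM of 4 dopamine neuron markers was 2.29 to 3.60 with the label TAAR5-KO and 2.10 to 3.60 with the label TAAR5-WT. Sums overlapped between the labels for cholinergic interneurons (3.16 to 8.61 against 4.20 to 10.7 CPM), other interneurons (28.4 to 31.4 against 26.7 to 33.9), oligodendrocyte precursors (11.7 to 15.1 against 12.3 to 16.1), mature oligodendrocytes (382 to 427 against 334 to 489) and microglia (16.9 to 25.0 against 22.04 to 30.8). They also overlapped for endothelium (3.48 to 4.83 against 3.39 to 4.66), leptomeningeal cells (3.32 to 7.43 against 3.61 to 7.89), ependyma (1.07 to 6.38 against 2.16 to 3.61), choroid plexus (1.23 to 455 against 2.08 to 278) and pituitary hormones (0 to 5.16 against 0.0835 to 52.3). Among these lists, 1 microglia marker, P2ry12, and 1 pituitary hormone, Gh, were called lower with the label TAAR5-KO, and the medians of the microglia sums were 21.2 and 26.8 CPM. The part of these cells in the levels of the members was not tested.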

How the data were processed

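Counts per gene were available for the striatum of 6 mice labelled TAAR5-KO and 6 labelled TAAR5-WT. The authors depleted ribosomal RNA, made directional libraries, trimmed single-end reads with cutadapt 4.1, used STAR 2.7.11b for alignment against GRCm39 and featureCounts 2.0.6 for counting. They deposited whole-number counts without normalization or pooling, beside the merged exon length in bases. How multiply mapped reads were handled is not given in the sources used here. Another 12 count columns, of no library analysed here, were left aside.

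Features with at least 0.5 CPM on total counts in at least 3 libraries were tested with glmFit and glmLRT of edgeR 4.0.16 (R 4.3.3) without covariates, and called at an adjusted p under 0.1. Filter, test and threshold are those of the study's methods, whereas the TMM factors are an addition, since those methods name CPM alone. The SE of a log2 fold change came from the information of the fitted model. DESeq2 1.42.0 and the quasi-likelihood test were alternatives, beside other scalings, filters, length and GC trends, and omitted libraries. Genes below the filter were fitted without it. Ratios had 0.5 counts added to each gene and were compared over all 924 assignments of the libraries, with a smallest possible p of 0.00216. The 30 pairs of libraries within a label differed by more than sampling noise (chi-square divided by its degrees of freedom between 3.54 and 222), and each library, from 1 animal per the labels, counted as 1 sample. Intervals and floors cover counting error and fitted variation only, since no molecular identifiers are named. Of the 57132 features, 56630 had a biotype in GENCODE M39.

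The members and lists were chosen with earlier results of these data known. Named were all members, every called gene of a pathway list or else the 2 with the smallest p, and the 3 features most like each tested member. A few genes that these rules name are not reported here.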

Additional observations from a re-analysis of the deposited data

Results flagged for a closer look

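In 36 groups of 6 libraries, taken from the 8 members, the 3 ratios and 7 named pathway genes, 2 values lay so far from the next that the gap, as a share of the range of the group, exceeded Dixon's 95% critical value, where chance alone gives about 1 in 20. Neither was a member. Manf had 4.71 CPM in NK4, labelled TAAR5-KO, against 3.19 CPM in the next library of that label, a gap of 0.779 of the range. Pcsk6 had 3.25 CPM in NK10, labelled TAAR5-WT, against 2.26 CPM in the next, a gap of 0.718 of the range.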

How the results depend on the processing

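No member was called in any setting or with any library left out. Over all features, 229 calls became 108 at an adjusted p under 0.05, 63 by the quasi-likelihood test, 7 with library size as the only scaling, 93 without a filter, 97 after removal of the GC trend, 53 without NK11 and NK12, 58 without NK1, NK2 and NK3, 696 with the cortical covariate, and 85 (without NK11) to 414 (without NK4) with 1 library left out. DESeq2, RLE factors, filterByExpr, a CPM filter on TMM library sizes, removal of ribosomal RNA features and removal of the length trend kept the count within 1.5 times. The pathway lists had 0 to 1 calls with 1 library left out and 3 with the cortical covariate, where Sdc3 was past the threshold at -0.40. Without NK1, NK2 and NK3, Il6st was at -0.08 and Furin at -0.17. The cause of these moves was not tested.

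With library size as the only scaling, Ntf3 (-0.44), Ntrk3 (-0.37), Gfra2 (-0.64) and Manf (-0.34) turned negative with the shift of all features. Also turned were Gfra1 at 0.027 without the GC trend, Bdnf at 0.38 without NK11 and NK12 (where Gfra2 was at 0.37), Gfra2 at -0.20 without NK1, NK2 and NK3, and Bdnf at 0.070 and Ntf3 at -0.041 with the cortical covariate. With 1 library left out, log2 fold changes ran from -0.30 to 0.18 for Bdnf, -0.21 to 0.21 for Ntf3, -0.13 to 0.028 for Gfra1 and -0.039 to 0.27 for Gfra2. Those of Ntrk3 (0.18 to 0.28), Ntrk2 (-0.12 to -0.07), Ret (-0.80 to -0.39) and Gdnf (-0.45 to -0.02) kept their sign.

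The difference in the ratio of Ntrk2 to Ntrk3 stayed between -0.38 and -0.28 with 1 library left out, with an adjusted exact permutation p from 0.0130 to 0.0974, and was -0.15 without NK1, NK2 and NK3, its lowest. That of Gfra1 to Gfra2 ran from -0.26 to 0.025 and turned to 0.15 without those 3. That of Ret to its co-receptors ran from -0.97 (without NK5, adjusted exact permutation p = 0.0617) to -0.49. No paired analysis was possible because the columns of the count table carry no animal number. Depth limits Ntf3, Gdnf and Ret most, whose counts reached no more than 8, 10 and 44.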
